A study of Sus scrofa domesticus with 12 samples.

Results

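The genes described here make, bind and break down hyaluronan, and were followed in porcine skeletal muscle 12 weeks after volumetric muscle loss (VML) injury. They are a list of 10 symbols looked up by name: the synthases HAS1, HAS2 and HAS3, the hyaluronidases HYAL1 and HYAL2, the receptors CD44, LYVE1 and HMMR, and the matrix binders VCAN and TNFAIP6. Of the 10, 9 were among the 11506 named genes of the abundance table, and HAS2 is not analysed here. RNA was taken from the peroneus tertius (PT) muscle in 12 limbs of 11 young-adult female Yorkshire Cross pigs. Each pig had undergone surgery on both sides, either VML injury, by excision of the middle part of this muscle, or a sham procedure. The muscle was exposed without removal of tissue in 2 sham-operated limbs, and the defect was left non-repaired in 2 limbs. It was filled with a hyaluronic acid hydrogel (Hya), a thiol-modified hyaluronan crosslinked with polyethylene glycol diacrylate, in 2 limbs and with an extracellular matrix (ECM) device in 6 limbs. The labels name the ECM as SIS, porcine small intestinal submucosa, for all 6 limbs, whereas the study divides them equally between SIS and UBM, urinary bladder matrix, so the 6 were kept as 1 ECM-repaired group. A single animal, pig 017, supplied limbs of 2 groups, its left limb non-repaired and its right limb Hya-repaired. The series is described as a time course, but no other time was given for these libraries.

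Hyaluronan is a long, unsulfated sugar polymer of the extracellular matrix, extruded through the plasma membrane by the HAS enzymes from UDP-sugars. It swells with water, is organised by proteoglycans and cross-linking proteins, and is sensed by cells through surface receptors. It accumulates in wounds and is cleaved by hyaluronidases into fragments, which are taken up by macrophages and lymphatic endothelium and digested in lysosomes.

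Levels are in TPM, the share of a library that a transcript takes up once its length is allowed for, so levels of different genes may be set side by side. Tests used limma on log2(TPM + 0.5) over 8765 genes with at least 1 TPM in every limb of at least 1 group, with p adjusted over all of them and a threshold of 0.05. The 3 injured groups, averaged with equal weight, are called VML-injured. The added 0.5 shrinks the fold change of genes at low TPM, and TPM hold no record of sequencing depth. Over all tested genes the median log2 fold change of VML-injured against sham-operated muscle was 0.73 on the deposited scale and 0.01 once libraries were rescaled by trimmed means, which set the trimmed average gene equal between libraries. Rescaled values are therefore given for the hyaluronan genes, and for the lists around them in VML-injured muscle, where they alter a call. All 14 skeletal muscle fiber markers in the table were at 1 TPM or more in every limb, the labelled tissue being skeletal muscle. Their summed level was 142756 to 146863 TPM in sham-operated and 9924 to 67813 TPM in injured limbs, where 10 of the 14 fell and 0 rose (13 and 0 after rescaling). Of 12 fibroblast markers, 11 rose and 0 fell, and their sum went from 1157 to 1643 TPM in sham-operated to 38344 to 99297 TPM in injured limbs. Of 13 tested macrophage markers, 13 rose, with sums of 50.8 to 90.2 TPM and 934 to 2583 TPM. Blood vessel endothelial markers, 8 in all, gave 0 calls as deposited and 2 lower after rescaling, with sums of 197 to 359 TPM and 134 to 653 TPM. Of 4 tested markers of neutrophils and lymphocytes, 2 rose, and 1 after rescaling. These 4, of 11 in the table, passed the filter through injured groups only, as 0 were at 1 TPM or more in both sham-operated limbs. Of the macrophage markers 11 were at that level in both sham-operated limbs, and the rest of those tested passed through injured groups only. Both counts are therefore descriptions of the markers that passed. Beside these marker counts, 49.3% of all tested genes rose and 7.67% fell, and 29% and 28% after rescaling. No marker in these lists was at 0 in all limbs. In such bulk tissue, fewer cells of a type and less RNA per cell cannot be told apart, and the part of cell makeup in the results below was not tested.

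The receptors CD44 and LYVE1 and the matrix binders VCAN and TNFAIP6 were far more abundant in injured than in sham-operated muscle. The synthases HAS1 and HAS3 stayed below 1.2 TPM in every limb, and nothing is shown here for HAS2. Of the 9 genes, 7 passed the filter on low values, TNFAIP6 and HMMR only through injured groups, and HAS1 and HAS3 did not, so counts over the 7 are descriptions of those that passed. In VML-injured muscle 6 of the 7 were called higher (HYAL1, CD44, LYVE1, VCAN, TNFAIP6 and HMMR) and 0 lower, and HYAL2 did not pass. Over all tested genes, 49.3% were called higher and 7.67% lower in the same comparison. After rescaling, 5 of the 7 were higher and 0 lower, beside 29% and 28% of all tested genes. The median log2 fold change of the 7 was 3.21, and 2.56 after rescaling. For 6 of the 9 genes (HAS1, HYAL1, CD44, LYVE1, VCAN and TNFAIP6) every one of the 10 injured limbs lay above both sham-operated limbs, as was so for 49.8% of the tested genes and 42.9% of the 11246 genes above 0 in a library. The summed level of the 9 genes was 16.7 and 49.0 TPM in sham-operated and 114 to 331 TPM in injured limbs. CD44 and VCAN together made up 27.3% and 21.7% of that sum in sham-operated and 57.6 to 75.5% in injured limbs.

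**Figure D1:**
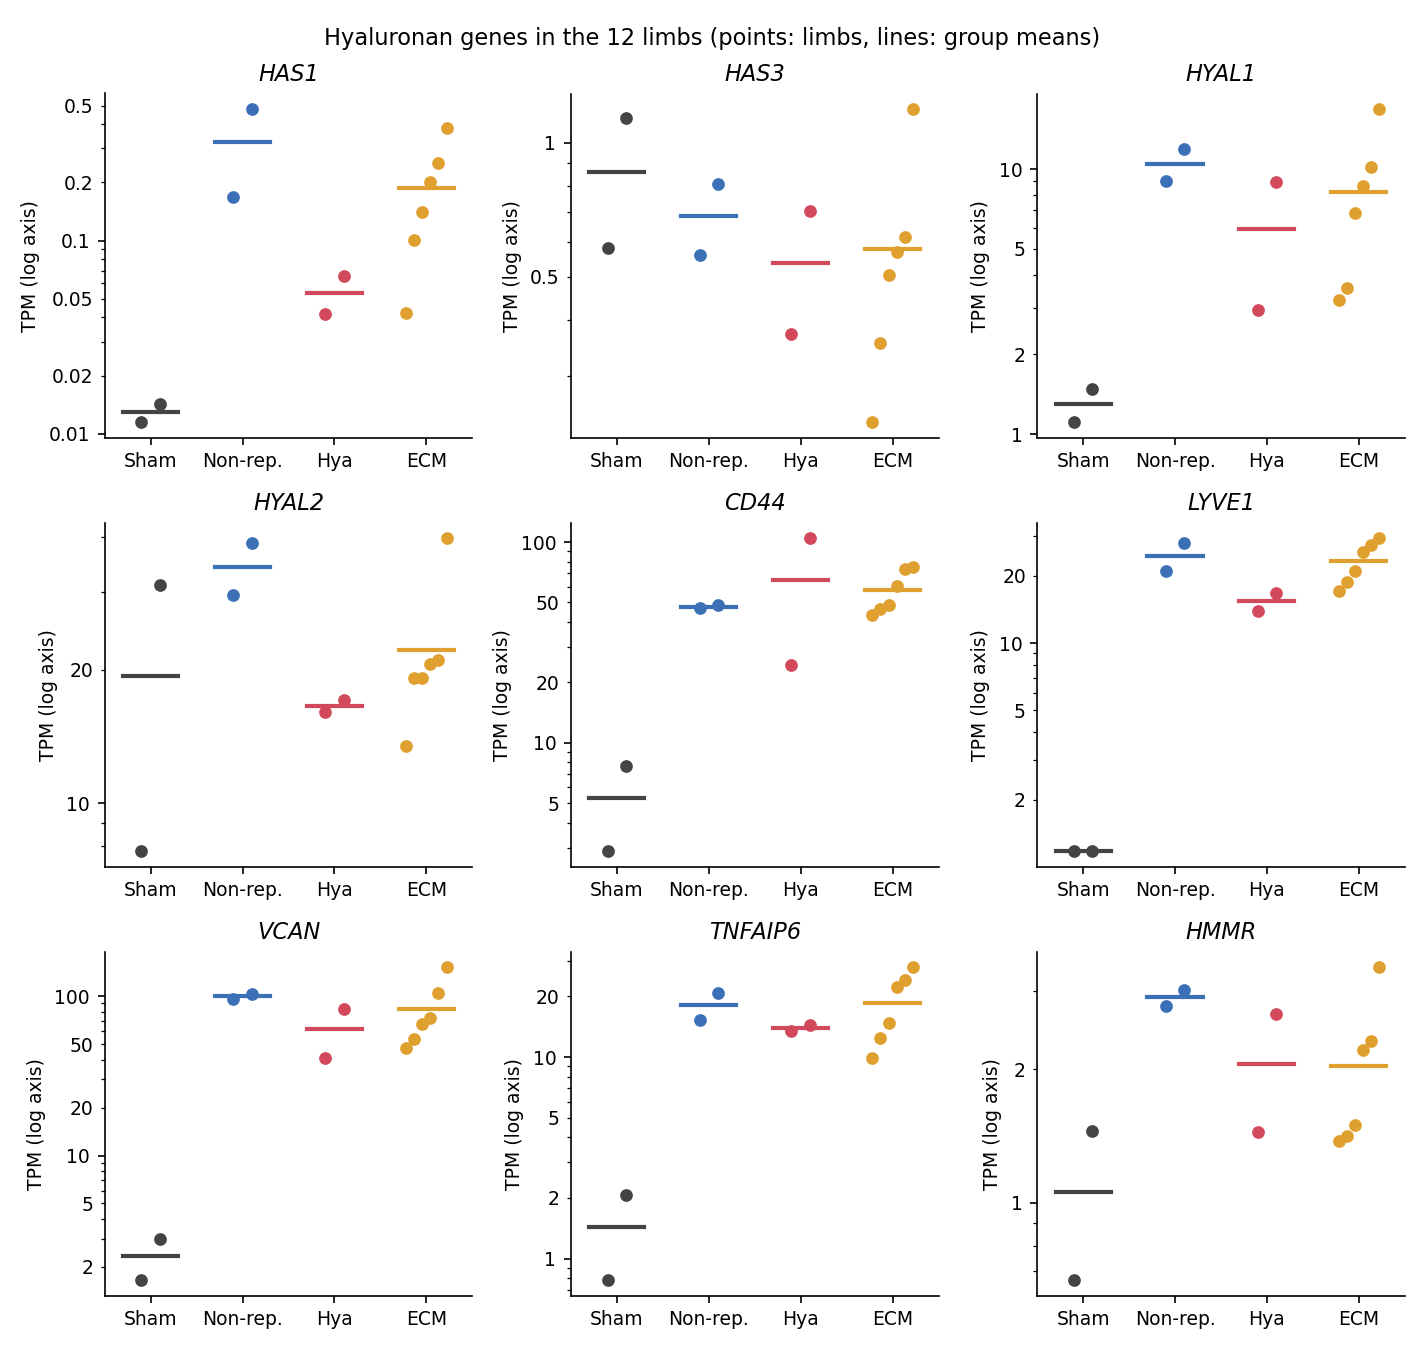
Abundance of the 9 hyaluronan genes in TPM on a log axis that differs between panels, with 1 point per limb and a line at each group mean (6 ECM-repaired limbs and 2 in each other group). All 10 injured limbs lie above both sham-operated limbs for HAS1, HYAL1, CD44, LYVE1, VCAN and TNFAIP6, but not for HAS3, HYAL2 and HMMR.

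HAS1, a synthase that is scarce in most tissues, was measured at 0.0115 and 0.0143 TPM in the sham-operated limbs of pigs 025 and 026. It was at 0.167 and 0.480 TPM in the non-repaired limbs of pigs 017 and 023, and at 0.0657 and 0.0418 TPM in the Hya-repaired limbs of pigs 016 and 017. In the ECM-repaired limbs its lowest, median and highest levels were 0.0424, 0.171 and 0.385 TPM. Every injured limb was thus above both sham-operated limbs, the mean over injured limbs being 14.5 times the sham mean, but each level was that of a barely detected transcript. Fitted without the filter, HAS1 had a log2 fold change of 0.39 (SE 0.18) in VML-injured muscle and did not pass (limma adjusted p = 0.0937). A pseudocount of 0.1 in place of 0.5 gave 1.16 (adjusted p = 0.0386), and leaving out the non-repaired limb of pig 017, or both limbs of that pig, also gave a call (adjusted p = 0.04 and 0.0492). In ECM-repaired muscle too HAS1 passed with that pseudocount (1.24, adjusted p = 0.0322) and without the limb of pig 018 (adjusted p = 0.0482). By group, with the pseudocount of 0.5, HAS1 passed in non-repaired muscle, at 0.66 (limma adjusted p = 0.0392), against 0.40 in ECM-repaired (adjusted p = 0.0908) and 0.11 in Hya-repaired muscle (adjusted p = 0.769). The call in non-repaired muscle ended without either sham-operated limb (adjusted p = 0.149 and 0.113), when pig 023 was dropped (adjusted p = 0.301), when pig 021 was dropped (adjusted p = 0.053) and without trend and robust estimation (adjusted p = 0.0628).

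HAS3, which makes shorter hyaluronan chains than the other synthases, was at 0.580 and 1.14 TPM in the sham-operated limbs of pigs 025 and 026. It stood at 0.561 and 0.808 TPM in the non-repaired limbs and at 0.704 and 0.372 TPM in the Hya-repaired limbs of pigs 016 and 017. The ECM-repaired limbs ranged from 0.236 to 1.19 TPM with a median of 0.538 TPM, so that injured and sham-operated limbs overlapped. Without the filter its log2 fold change in VML-injured muscle was -0.30 (SE 0.28, limma adjusted p = 0.414). The scale decided this result: after rescaling all 10 injured limbs lay below both sham-operated limbs, as did 23.8% of the genes above 0 in a library, and HAS3 was called lower at -0.82 (limma adjusted p = 0.00627), as it was in each injured group (-0.87 to -0.79, adjusted p = 0.00492 to 0.0332). HAS1 was the lesser of the 2 synthases in every limb. Its share of their summed TPM, which no scaling of libraries alters, was 1.94% and 1.24% in the sham-operated, 22.98% and 37.2% in the non-repaired, 8.53% and 10.1% in the Hya-repaired and 10.7 to 37.4% in the ECM-repaired limbs.

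HYAL1, a lysosomal hyaluronidase that cuts chains down to small oligosaccharides, rose in injured muscle. It was at 1.11 and 1.48 TPM in the sham-operated limbs, 9.06 and 11.9 TPM in the non-repaired limbs, and 8.98 and 2.94 TPM in the Hya-repaired limbs of pigs 016 and 017. The ECM-repaired limbs had a lowest level of 3.21, a median of 7.74 and a highest of 16.9 TPM. The injured limbs were spread 5.74-fold and none overlapped the sham-operated limbs. The log2 fold change was 2.12 in VML-injured muscle (SE 0.53, limma adjusted p = 0.00483) and 1.48 after rescaling (adjusted p = 0.00703). It passed in non-repaired muscle at 2.61 (adjusted p = 0.00716) and in ECM-repaired muscle at 2.08 (adjusted p = 0.00618), and not in Hya-repaired muscle at 1.68 (limma adjusted p = 0.0645). The VML-injured call ended without the sham-operated limb of pig 025, at 1.97 (adjusted p = 0.0635), as did those of the ECM-repaired (adjusted p = 0.0663) and non-repaired groups (adjusted p = 0.0536), the latter also without the non-repaired limb of pig 023 (adjusted p = 0.0517). In the Hya-repaired group HYAL1 was called once the Hya-repaired limb of pig 017 (2.41, adjusted p = 0.0227), the ECM-repaired limb of pig 018 (adjusted p = 0.0487) or that of pig 024 (adjusted p = 0.0344) was left out, and with a pseudocount of 0.1 (1.92, adjusted p = 0.0494).

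HYAL2, a membrane-anchored hyaluronidase that makes the first cuts in long chains, did not pass. Its sham-operated limbs were 3.99-fold apart, at 7.79 TPM in pig 025 and 31.0 TPM in pig 026. The non-repaired limbs were at 29.5 and 38.7 TPM, the Hya-repaired limbs at 17.1 and 16.1 TPM, and the ECM-repaired limbs had a lowest, median and highest level of 13.4, 19.9 and 39.7 TPM. Of the 10 injured limbs, 2 were above both sham-operated limbs and 0 below both. The log2 fold change in VML-injured muscle was 0.53 (95% CI -0.41 to 1.46, limma adjusted p = 0.31) and its sign turned to -0.25 after rescaling (adjusted p = 0.547). It depended on which sham-operated limb was used, at 1.49 without that of pig 026 (adjusted p = 0.0158) and -0.44 without that of pig 025. The ECM-repaired (1.37, adjusted p = 0.0244) and non-repaired groups (2.05, adjusted p = 0.00748) likewise passed without the sham-operated limb of pig 026. HYAL1 and HYAL2 lie side by side on chromosome 13 of the Sscrofa11.1 annotation. HYAL1 was below HYAL2 in every limb, at 14.2% and 4.77% of its TPM in the sham-operated limbs of pigs 025 and 026 and at 16.8 to 53.4% in injured limbs.

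CD44, the main cell surface receptor for hyaluronan on leukocytes and mesenchymal cells, was raised in every injured limb. Its level was 2.89 and 7.67 TPM in the sham-operated limbs of pigs 025 and 026 and 48.5 and 46.8 TPM in the non-repaired limbs of pigs 017 and 023. The Hya-repaired limb of pig 016 held the highest level of all limbs, 105 TPM, and that of pig 017 the lowest among injured limbs, 24.3 TPM. The ECM-repaired limbs lay between them, with a lowest of 43.5, a median of 54.5 and a highest of 74.8 TPM. The lowest injured limb was 3.18 times the highest sham-operated limb. CD44 had a log2 fold change of 3.30 (SE 0.45, limma adjusted p = 6.68e-05), with 3.19 in non-repaired, 3.28 in Hya-repaired and 3.44 in ECM-repaired muscle (limma adjusted p = 0.00077, 0.000886 and 5.98e-05).

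LYVE1, a hyaluronan receptor of lymphatic endothelium and of some tissue macrophages, gave the same level, 1.18 TPM, in both sham-operated limbs. It was at 28.1 and 20.98 TPM in the non-repaired limbs of pigs 017 and 023 and at 16.8 and 13.97 TPM in the Hya-repaired limbs of pigs 016 and 017. The ECM-repaired limbs ranged from 17.2 to 29.5 TPM with a median of 23.3 TPM. The injured limbs were within 2.11-fold of each other, and the lowest was 11.9 times the highest sham-operated limb. LYVE1 had a log2 fold change of 3.64 (SE 0.25, limma adjusted p = 6.41e-07), and 3.89 in non-repaired, 3.24 in Hya-repaired and 3.80 in ECM-repaired muscle (limma adjusted p = 6.23e-06, 2.53e-05 and 6.18e-07). Of 4 other lymphatic markers in the table, CCL21 and PDPN were at 1 TPM or more and both rose. CCL21, a chemokine of lymphatic endothelium, was 7.30 and 7.83 TPM in sham-operated and 79.2 to 375 TPM in injured limbs, a change of 4.40 on the log2 scale (limma adjusted p = 1.93e-06). PDPN, a surface glycoprotein of lymphatic endothelium and also of activated fibroblasts, had 2.80 (limma adjusted p = 2.2e-06). The other two, PROX1 and TFF3, were under the filter. Per unit of CCL21, LYVE1 stood at 0.150 and 0.161 in sham-operated and 0.0562 to 0.265 in injured limbs, which overlap. The macrophage markers rose in the same limbs, among them C1QB, a complement subunit, at 4.77, and LGALS3, a galectin, at 5.08 on the log2 scale.

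HMMR, a receptor that binds hyaluronan at the cell surface and the mitotic spindle inside dividing cells, differed least of the called genes. It was at 0.670 and 1.45 TPM in the sham-operated limbs of pigs 025 and 026, at 2.78 and 3.03 TPM in the non-repaired limbs, and at 2.67 and 1.44 TPM in the Hya-repaired limbs of pigs 016 and 017. The ECM-repaired limbs had a lowest, median and highest level of 1.38, 1.86 and 3.40 TPM. Of the 10 injured limbs, 7 were above both sham-operated limbs, and the other 3 lay within the sham range. The log2 fold change in VML-injured muscle was 0.86 (SE 0.34, limma adjusted p = 0.0449), close to the shift of all genes. The call ended after rescaling (0.28, adjusted p = 0.274), with no filter (adjusted p = 0.0522), with a pseudocount of 1 (adjusted p = 0.0501) and when pig 025 was dropped from the sham-operated group (0.49, adjusted p = 0.421). It also ended without any 1 of the Hya-repaired limb of pig 016, the non-repaired limbs of pigs 017 and 023, and the ECM-repaired limbs of pigs 021 and 022 (adjusted p = 0.0626 to 0.093). HMMR was also called in non-repaired muscle, at 1.17 (adjusted p = 0.0393), but not after rescaling (0.44, adjusted p = 0.202) or without either non-repaired limb, the sham-operated limb of pig 025 or the ECM-repaired limb of pig 021 or 022 (adjusted p = 0.053 to 0.269), and not in ECM-repaired (0.70, adjusted p = 0.104) or Hya-repaired muscle (0.72, limma adjusted p = 0.197). Of 14 other cell division genes tested, 14 were higher, with a median log2 fold change of 1.47, and 12 after rescaling, when PCNA, the clamp of DNA replication, and BIRC5, a mitotic survival protein, no longer passed (limma adjusted p = 0.221 and 0.107). Their summed level was 23.8 to 34.9 TPM in sham-operated and 71.4 to 122 TPM in injured limbs. Only 4 of these 14 were at 1 TPM or more in both sham-operated limbs. The rest passed the filter on low values through injured groups only, so their count is a description of those that passed. Over all tested genes, 49.3% were called higher in this comparison, and 29% after rescaling.

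VCAN, which encodes versican, a large chondroitin sulfate proteoglycan that holds hyaluronan in a swollen provisional matrix, had the largest change of the 9 genes by every ratio computed here. Its level was 1.65 and 3.00 TPM in the sham-operated limbs of pigs 025 and 026, 103 and 96.5 TPM in the non-repaired limbs, and 82.9 and 41.2 TPM in the Hya-repaired limbs of pigs 016 and 017. The ECM-repaired limbs ranged from 47.6 to 152 TPM with a median of 69.6 TPM. The mean over injured limbs was 35.3 times the sham mean, and the lowest injured limb was 13.7 times the highest sham-operated limb. VCAN had a log2 fold change of 4.81 (SE 0.40, limma adjusted p = 2.16e-06), and 5.19 in non-repaired, 4.42 in Hya-repaired and 4.80 in ECM-repaired muscle (limma adjusted p = 1.7e-05, 6.7e-05 and 2.38e-06). Set against COL3A1, the chain of type III collagen and a fibroblast marker, VCAN overlapped between injured and sham-operated limbs through the ECM-repaired limb of pig 024 alone. There were 2.90 and 3.84 TPM of VCAN per 1000 TPM of COL3A1 in sham-operated and 1.25 to 4.49 in injured limbs, or 1.25 to 2.86, below both sham-operated limbs, without that limb. The balance of receptor to proteoglycan did separate sham-operated from injured limbs, with 1.74 and 2.56 TPM of CD44 per TPM of VCAN in sham-operated and 0.469 to 1.27 in injured limbs. How many other pairs of genes do so was not counted. TNFAIP6 per VCAN overlapped, at 0.473 and 0.692 in sham-operated and 0.0973 to 0.504 in injured limbs. So did LYVE1 per CD44, at 0.408 and 0.154 and at 0.161 to 0.594.

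TNFAIP6, whose product TSG-6 is secreted in inflammation and moves heavy chains of inter-alpha-inhibitor onto hyaluronan, was at 0.782 and 2.07 TPM in the sham-operated limbs of pigs 025 and 026. It was at 20.8 and 15.3 TPM in the non-repaired limbs and at 14.4 and 13.4 TPM in the Hya-repaired limbs. The ECM-repaired limbs had a lowest level of 9.93, a median of 18.5 and a highest of 27.9 TPM. Every injured limb was above both sham-operated limbs, the lowest of them by 4.78-fold. TNFAIP6 had a log2 fold change of 3.21 (SE 0.38, limma adjusted p = 2.53e-05), and 3.33 in non-repaired, 2.98 in Hya-repaired and 3.30 in ECM-repaired muscle (limma adjusted p = 0.000193, 0.000555 and 2.37e-05). CD44, LYVE1, VCAN and TNFAIP6 each kept their call in the 4 comparisons with sham-operated limbs after rescaling and in the VML-injured comparison without any 1 limb. In that comparison the sham-operated limb kept decided the size: the log2 fold change of CD44 was 2.67 without that of pig 025 and 3.94 without that of pig 026, and that of TNFAIP6 2.70 and 3.71.

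Each injured group was also set against the same 2 sham-operated limbs, which the comparisons therefore share. In non-repaired muscle 6 of the 7 tested genes were higher and 0 lower, beside 45.1% and 1.19% of all tested genes. The ECM-repaired group had 5 higher and 0 lower, beside 47.9% and 9.98% of all tested genes. In the Hya-repaired group 4 were higher (CD44, LYVE1, VCAN and TNFAIP6) and 0 lower, beside 33.8% and 3.74% of all tested genes. The median log2 fold change of the 7 genes was 3.19, 3.30 and 2.98 in these groups, and that of all tested genes 0.89, 0.71 and 0.60. The standard errors of the Hya-repaired and non-repaired groups are larger than those of the ECM-repaired group because each has 2 limbs. The spread behind them was estimated from all 12 libraries together, so they do not measure how far those 2 limbs lie apart.

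**Figure D2:**
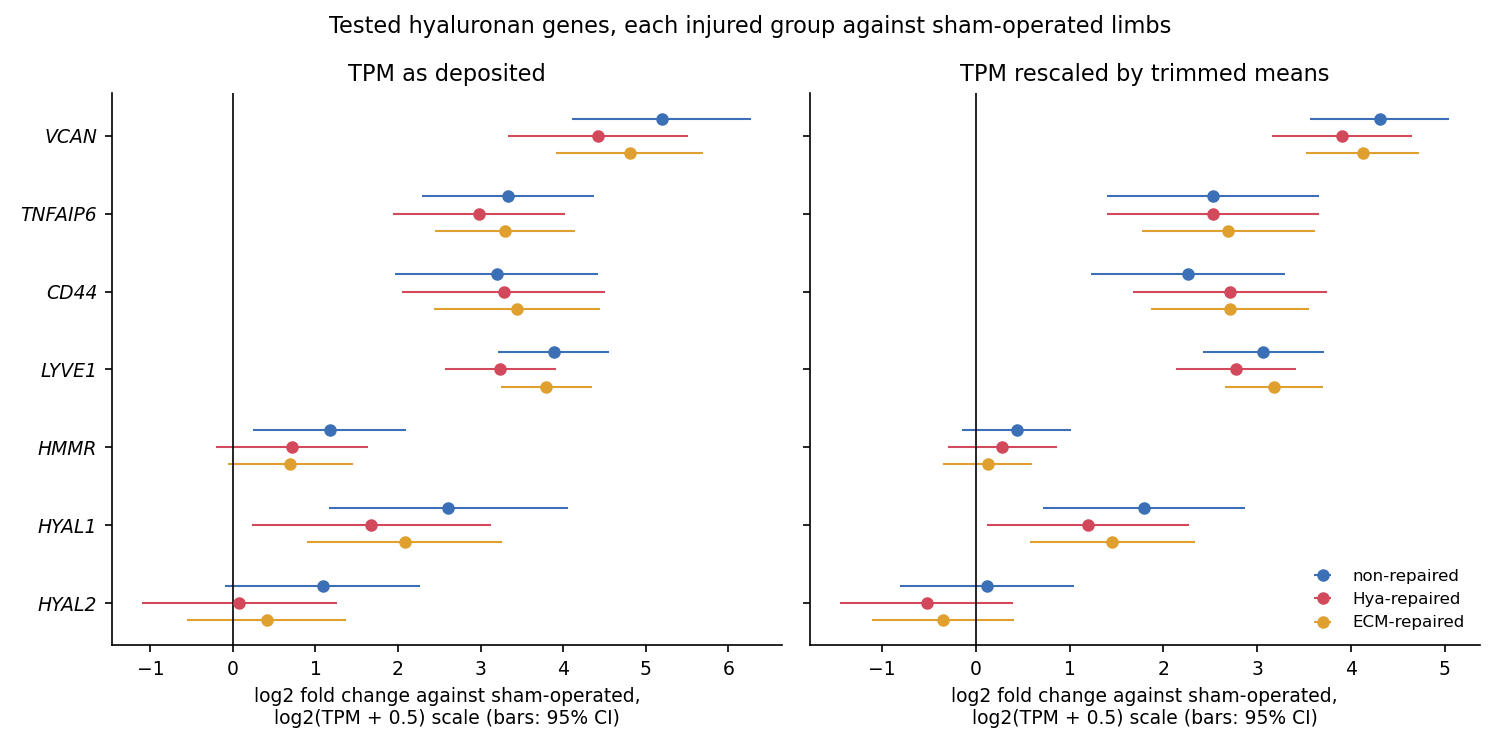
Log2 fold change of the 7 tested hyaluronan genes in each injured group against the 2 sham-operated limbs, on the log2(TPM + 0.5) scale, with bars for the 95% confidence interval from limma, for TPM as deposited (left) and rescaled by trimmed means (right). CD44, LYVE1, VCAN and TNFAIP6 lie to the right of 0 on both scales in all 3 groups, while HYAL2 spans 0 in each group on both scales and HMMR spans 0 in all 3 groups after rescaling.

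The enzymes around these genes moved in both directions. Beside the counts of this list, 49.3% of all tested genes rose and 7.67% fell in VML-injured muscle, and 29% and 28% after rescaling. Of 15 tested enzymes on the route to the UDP-sugars from which hyaluronan is built, 12 rose and 3 fell in VML-injured muscle. Their median log2 fold change was 1.29, and 7 and 3 passed after rescaling. The list holds enzymes that build these sugars and others, such as AMDHD2, that act in reverse, so its count does not give a direction of synthesis. UGDH, GFPT2 and UAP1L1 of the same list are not analysed here. NAGK, which salvages N-acetylglucosamine by phosphorylating it, went from 6.54 and 9.91 TPM in sham-operated to 46.5 to 127 TPM in injured limbs (3.22, limma adjusted p = 6.24e-06). AMDHD2, which acts in the reverse direction of amino sugar synthesis, rose by 2.70 (limma adjusted p = 1.52e-05). At the glucose end of the pathway, which is shared with glycolysis and glycogen, the enzymes moved both ways. PGM1, phosphoglucomutase, went from 909 and 957 TPM to 78.6 to 422 TPM (-2.10, limma adjusted p = 0.00664), and GPI, glucose-6-phosphate isomerase, fell by 1.33 on the log2 scale (limma adjusted p = 0.00456). UGP2, which makes UDP-glucose, fell as well, at -0.82 (limma adjusted p = 0.0228), whereas the hexokinase HK1 and a further phosphoglucomutase gene, PGM2, rose by 2.50 and 1.31 (limma adjusted p = 0.0125 and 0.0135). HK1 did not pass after rescaling (adjusted p = 0.0519), and UGP2, HK1 and PGM2 were named after their values were seen. The muscle fiber markers were lower in the same limbs.

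Of 11 other tested hyaluronan-binding proteins, 6 rose and 0 fell, with a median log2 fold change of 0.80, near that of all genes, and after rescaling 5 were higher and 1 lower. Of all tested genes, 49.3% rose and 7.67% fell, and 29% and 28% after rescaling. ACAN, which encodes aggrecan, the large hyaluronan-binding proteoglycan of cartilage and tendon, went from 0.874 and 0.663 TPM in the sham-operated limbs to 166 to 656 TPM in injured limbs (8.06, limma adjusted p = 3.06e-07). In every injured limb there was thus more ACAN than VCAN, and in both sham-operated limbs less. TLR2, an innate immune receptor that can respond to hyaluronan fragments, rose by 3.19 (limma adjusted p = 3.48e-06). HABP2, a plasma protease, was at 4.34 and 4.27 TPM in sham-operated and 0.176 to 3.28 TPM in injured limbs and did not pass (-1.39, limma adjusted p = 0.0501), though it did after rescaling (-2.10, adjusted p = 0.00566). ITIH4, a relative of the heavy chains that TNFAIP6 transfers, had -0.65 (limma adjusted p = 0.468).

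All 5 other tested breakdown enzymes rose, also after rescaling, with a median log2 fold change of 2.89. GUSB, the lysosomal β-glucuronidase, went from 2.38 and 5.14 TPM to 24.5 to 49.1 TPM (3.29, limma adjusted p = 3.12e-06), and HEXA, a subunit of β-hexosaminidase, rose by 2.89 (limma adjusted p = 2.78e-06). These exoenzymes remove the terminal sugars of hyaluronan fragments, among other substrates. Of 11 tested genes for versican proteases and for its chondroitin sulfate chains, 9 rose and 1 fell, with a median of 2.35, and 7 and 1 passed after rescaling, with a median of 1.85. CHSY1, a chondroitin synthase, had 2.79 (limma adjusted p = 1.26e-05) and DSE, which makes dermatan sulfate, 3.12 (adjusted p = 1.67e-05). The proteases moved both ways. ADAMTS20, at 1.88 and 3.73 TPM in sham-operated and 0.104 to 2.40 TPM in injured limbs, fell by 1.36 on the log2 scale (limma adjusted p = 0.035). ADAMTS4, named after its values were seen, rose by 2.35 (limma adjusted p = 0.000155). Of 13 tested partners and sheddases of CD44, 8 rose and 2 fell, with a median of 1.29, and 6 rose and 3 fell after rescaling. For these lists too, the shares of all tested genes were 49.3% higher and 7.67% lower, and 29% and 28% after rescaling. MMP14, a membrane protease that sheds CD44, went from 5.16 and 13.5 TPM to 129 to 454 TPM (4.99, limma adjusted p = 2.74e-06), and EZR, which ties CD44 to actin, rose by 3.41 (adjusted p = 2.18e-05). The ankyrins ANK1 (-2.40, limma adjusted p = 0.0189) and ANK3 (-0.82, limma adjusted p = 0.0408) fell, ANK1 being also a protein of the muscle fiber. Of the genes named from these lists other than ADAMTS4, ACAN and TLR2 passed the filter on low values through injured groups only, and HABP2, ADAMTS20 and ANK3 through the sham-operated group only.

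**Figure D3:**
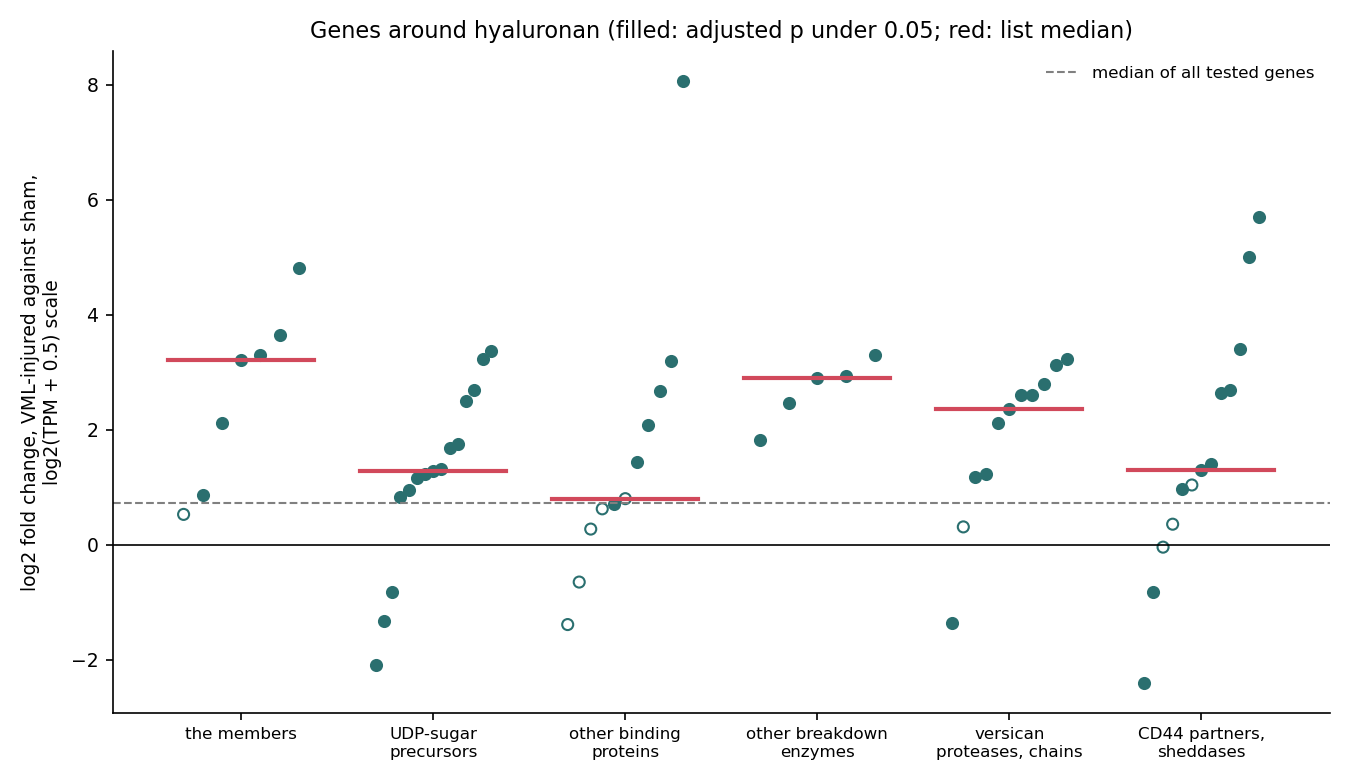
Log2 fold change in VML-injured against sham-operated muscle, on the log2(TPM + 0.5) scale, of each tested hyaluronan gene and of the tested genes in 5 lists around them, 1 point per gene, filled where the limma adjusted p was under 0.05. Red lines are list medians and the dashed line is the median of all tested genes, 0.73; the medians are 3.21 for the 7 hyaluronan genes, 1.29 for UDP-sugar enzymes, 0.80 for other binding proteins, 2.89 for other breakdown enzymes, 2.35 for versican and 1.29 for CD44 partners.

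The hydrogel is itself made of modified hyaluronan, and the Hya-repaired limbs were therefore set against the other injured limbs. Limma called 0 of the 7 tested genes between Hya-repaired and non-repaired limbs, 0 between Hya-repaired and ECM-repaired limbs, 0 between ECM-repaired and non-repaired limbs and 0 between Hya-repaired limbs and the mean of the other injured groups, beside 0% of all tested genes in each. At an unadjusted limma p under 0.05, there were 194, 205, 71 and 245 of the 8765 tested genes. Among the 7, LYVE1 was the 1 gene with such a p, in 2 of the 4 comparisons. Both Hya-repaired limbs, at 16.8 and 13.97 TPM, were below all 8 other injured limbs, whose lowest was 17.2 TPM, as was so for 2.85% of the tested genes. Against the mean of the other injured groups the log2 difference of LYVE1 was -0.60 (95% CI -1.15 to -0.06, unadjusted p = 0.0335, limma adjusted p = 1), and against ECM-repaired limbs -0.56 (95% CI -1.11 to -0.01, limma adjusted p = 1). After rescaling the first was -0.35 (95% CI -0.87 to 0.18) and the limbs overlapped, with 2.29% of the tested genes then having both Hya-repaired limbs lowest.

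For the other 6 tested genes the intervals of the difference from the mean of the other injured groups all included 0, and they were wide. They ran from -1.85 to 0.51 for HYAL1, -1.63 to 0.29 for HYAL2 and -1.04 to 0.97 for CD44 on the log2 scale. For VCAN, TNFAIP6 and HMMR they ran from -1.46 to 0.32, -1.18 to 0.52 and -0.97 to 0.54. The estimates themselves were -0.67, -0.67, -0.03, -0.57, -0.33 and -0.22, and the median over all tested genes was -0.18. HAS1, fitted without the filter, had -0.42 (95% CI -0.82 to -0.02, unadjusted p = 0.0415, limma adjusted p = 1), and HAS3 -0.11 (95% CI -0.75 to 0.53).

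**Figure D4:**
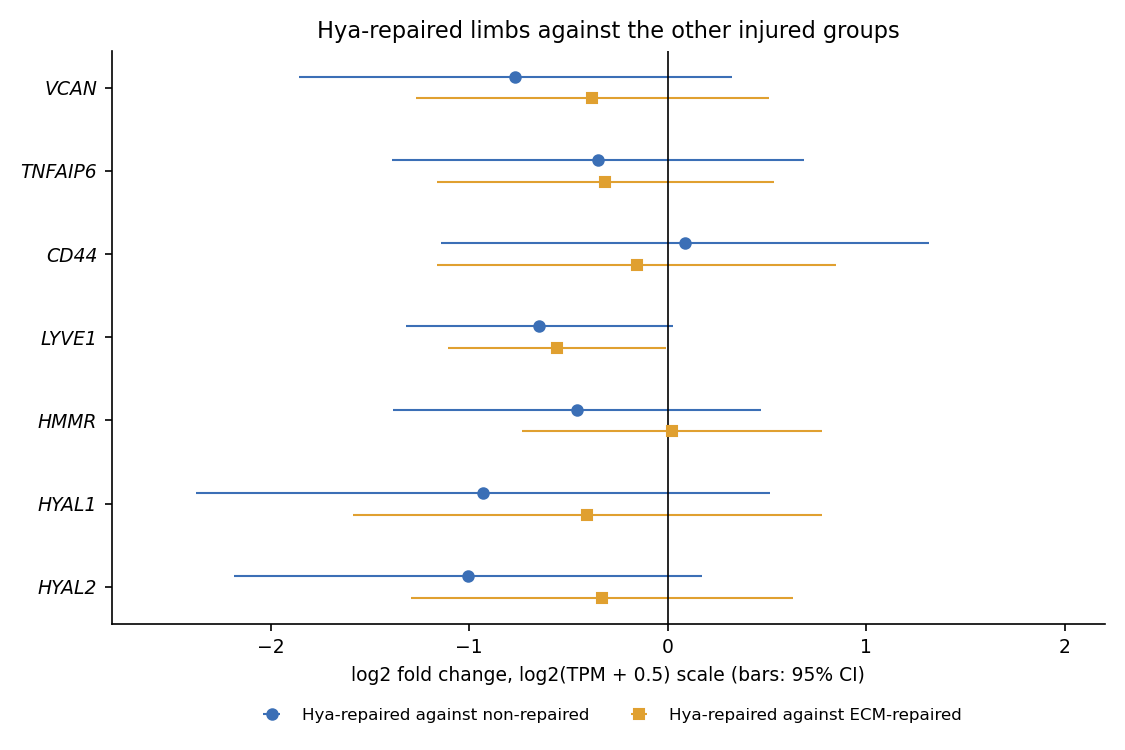
Log2 difference of the 7 tested hyaluronan genes between the 2 Hya-repaired limbs and the 2 non-repaired limbs (circles) or the 6 ECM-repaired limbs (squares), on the log2(TPM + 0.5) scale, with bars for the 95% confidence interval from limma. All intervals include 0 apart from LYVE1 against ECM-repaired limbs, which ends at -0.01, and no difference passed adjustment.

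The 2 Hya-repaired limbs were unlike each other in some of these genes and close in others. CD44 was 4.30-fold, HYAL1 3.06-fold and VCAN 2.01-fold higher in pig 016 than in pig 017, whereas HYAL2, TNFAIP6 and LYVE1 were 1.07-fold, 1.07-fold and 1.20-fold apart. All 9 genes were higher in pig 016 as deposited and 6 after rescaling, which multiplied all TPM by 0.895 in pig 016 and by 1.18 in pig 017. The share of all genes higher in pig 016 was not counted. The estimate for CD44 accordingly went from -1.08 without the limb of pig 016 to 1.01 without that of pig 017. The Hya-repaired limb of pig 017 had the highest summed muscle fiber markers of the injured limbs, 67813 TPM, and the lowest fibroblast and macrophage sums, 38344 and 934 TPM, and that of pig 016 had 11302 TPM of muscle fiber markers and the highest fibroblast sum, 99297 TPM. The part of these sums in the gap between both limbs was not tested.

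Pig 017 allows the only comparison within an animal, 1 limb against 1 limb with no replicate check. All 9 genes were lower in its Hya-repaired than in its non-repaired limb, both as deposited and after rescaling. Rescaling multiplied all TPM by 1.18 in the Hya-repaired and by 0.838 in the non-repaired limb, a shift that the deposited ratios hold. How many of all genes were lower in the same way was not counted, so the 9 have no share to stand beside. The non-repaired limb had 4.01 times as much HAS1, 3.09 times as much HYAL1, 2.51 times as much VCAN, 2.01 times as much LYVE1 and 1.99 times as much CD44. For HMMR, HYAL2, TNFAIP6 and HAS3 the ratios were 1.93, 1.84, 1.55 and 1.51. Rescaling brought the ratios to between 1.07 for HAS3 and 2.85 for HAS1.

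**Figure D5:**
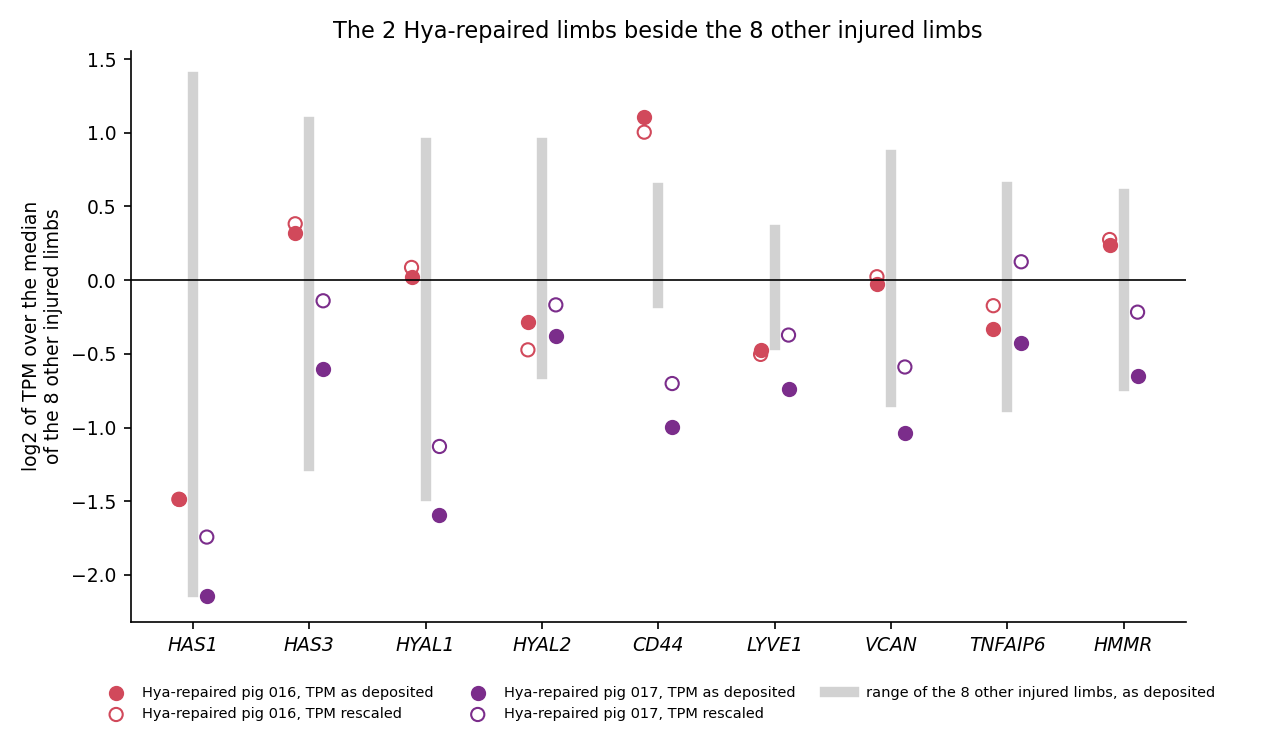
Level of the 9 hyaluronan genes in each of the 2 Hya-repaired limbs, as the log2 of TPM over the median of the 8 other injured limbs, with filled circles for TPM as deposited, open circles for TPM rescaled by trimmed means and grey bars for the range of the 8 other injured limbs as deposited. CD44 in pig 016 is above that range and in pig 017 below it, and as deposited both limbs are below it for LYVE1 only, by a small margin in pig 016.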

How the data were processed

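RNA-seq was carried out on 12 libraries, each from 1 limb. Per the labels and the methods of the study, the authors made TruSeq libraries, sequenced paired ends, pseudoaligned them with kallisto and deposited TPM values for 11506 named genes, which held 71.5 to 82.7% of a library's TPM; the version of kallisto is not given in the sources used here. Scaling to a fixed sum means that a few very abundant genes shift all others. TPM keep no read counts, so the depth of single libraries, for which the study gives only an average, is not known, DESeq2 could not be used, and the number of limbs limits precision. Names turned into dates (21) were dropped, and 618 of 1833 names beginning with LOC took a RefSeq symbol. No coordinates are printed because the builds differ.

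The 8765 genes that reached 1 TPM throughout at least 1 group were fitted as log2(TPM + 0.5) with limma 3.58.1 in R 4.3.3, with all 12 libraries in one fit, trend and robust estimation, and Benjamini-Hochberg adjustment per comparison. The fit was tested on simulated data with independent noise and no shift in scale between libraries, so that test cannot speak to the shift of all genes on the deposited scale. HAS1 and HAS3 were read from a fit without the filter, over 11246 genes. Separate limbs were taken as replicates, and the 2 limbs of pig 017 share an animal. The hyaluronan genes, the lists around them and the tests were chosen with earlier results of these data known. Named besides the hyaluronan genes were, from each pathway list, up to 2 genes of smallest p in each direction, and from marker lists the 2 most abundant tested genes. Genes alike were ranked by Pearson's r over the injured limbs. Alternatives were rescaling by trimmed means (30% of log ratios, 5% of abundance) or by medians of ratios, another pseudocount (0.1 or 1), a stricter filter or none, plain empirical Bayes, the compared groups alone, and leaving out each limb or both limbs of pig 017.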

Additional observations from a re-analysis of the deposited data

How the results depend on the processing

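Counts of called hyaluronan genes among those that passed each filter stayed within 1.5 times their value under every alternative run, with 0 called lower and 0 called between injured groups. In the fit without the filter, HAS3 was called lower after either rescaling. With each limb left out in turn, 4 to 7 were higher in VML-injured, 4 to 6 in ECM-repaired, 4 to 7 in non-repaired and 4 to 5 in Hya-repaired muscle, a limb left alone in its group being assumed to vary like the others. CD44, LYVE1, VCAN and TNFAIP6 kept their VML-injured calls under each alternative that tested them. HYAL1 lost its call without the sham-operated limb of pig 025, HMMR under several settings, and HYAL2 turned sign on rescaling; beyond the settings themselves, the cause was not tested. HAS1 and HAS3, under 1.2 TPM, depended on the pseudocount or the scale. No paired analysis was possible because only pig 017 gave limbs to 2 groups. The ECM-repaired group has 6 limbs and every other group 2, and the intervals between injured groups are wide.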

Other observations

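Among the 10 injured limbs, some of the hyaluronan genes ranked the limbs alike. Pearson's r of log2(TPM + 0.5) was 0.96 between VCAN and HYAL1, 0.90 between HMMR and HYAL1 and 0.89 between HMMR and VCAN, and 0.91, 0.72 and 0.62 after rescaling. TNFAIP6 had lower r with the others, from -0.15 with HYAL2 to 0.29 with CD44. After rescaling its r ran from -0.49 with HYAL2 to 0.29 with LYVE1. These are descriptions over 10 limbs of 3 groups, with no test, and the genes of a limb share its library and scaling.

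Over the tested genes, the pattern closest to HYAL1 was that of PKD2, a cation channel of the primary cilium (r = 0.98), which was also among the 3 closest to VCAN (0.98) together with MAP7D3 (0.98) and ALMS1 (0.98). HYAL2 was closest to SELP, the endothelial and platelet adhesion molecule P-selectin (0.98), and EDN1, the vasoconstrictor peptide endothelin-1 (0.97). CD44 was closest to C2H19orf66 (0.97), PHF23 (0.97) and ALDH3B1 (0.97), LYVE1 to UHRF1BP1L (0.96) and HMMR to ALS2CR12 (0.99). The closest gene to TNFAIP6 was FAM96B at 0.85, the weakest of these best matches as deposited. After rescaling, the r with the same closest gene was 0.84 for TNFAIP6, 0.79 for CD44 and 0.78 for LYVE1. It was 0.92 to 0.97 for HYAL1, HYAL2, VCAN and HMMR. These are the highest of 8765 genes over 10 limbs, and nothing about shared function or control follows from them.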
